A study of Mus musculus with 16 samples.

Results

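The 10 genes described here encode enzymes that turn arachidonic acid into prostaglandins, leukotrienes and hydroxylated fatty acids. They are Ptgs1, Ptgs2, Ptges, Hpgds, Alox5, Alox5ap, Lta4h, Ltc4s, Alox15 and Alox12e, found by their symbols among the 20200 genes of the deposited count table, and all 10 passed the expression filter that left 11998 genes for testing. The cells came from the tissue between tendon graft and bone of adult male wild-type C57BL/6 mice (C57BL/6J in the study's methods) after anterior cruciate ligament reconstruction (ACLR), an operation that passes a flexor tendon through drilled tunnels in femur and tibia. Live CD45+ cells without lineage markers were flow-sorted on days 1 and 14 into 4 populations. CD9+ macrophages were Ly6G- CD11b+ F4/80+ CD9+, CX3CR1+ macrophages were F4/80+ CX3CR1+ without CD9, F4/80- myeloid cells were CD11b+ without Ly6G or F4/80, and neutrophils were CD11b+ Ly6G+ Ly6C+. By the study's methods the rare cells with both CD9 and CX3CR1 were sorted with the CD9+ macrophages. The harvest took a sliver of underlying bone along with the soft tissue. Every mouse had been operated on, so there is no group without surgery. Each of the 8 groups has 2 libraries, 16 in all, and each library is the RNA of cells pooled from several mice, so that the spread between libraries is a spread between pools.

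Arachidonic acid is cut from membrane phospholipids and then enters one of several branches. Cyclooxygenases, the constitutive Ptgs1 and the inducible Ptgs2, make prostaglandin H2, which Ptges turns into prostaglandin E2, a mediator of pain and inflammation, and Hpgds into prostaglandin D2. In the leukotriene branch the 5-lipoxygenase Alox5 works with its membrane partner Alox5ap to make leukotriene A4, from which Lta4h makes the neutrophil attractant leukotriene B4 and Ltc4s the cysteinyl leukotriene C4. Alox15, the mouse 12/15-lipoxygenase, and its relative Alox12e make hydroxylated fatty acids, and Alox15 is known from resident peritoneal macrophages and eosinophils and as a target of interleukin 4.

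In the files' mm10 build and by Gencode gene models, Ptgs1 (ENSMUSG00000047250) lies at chr2:36230426-36252272 (+), Ptgs2 (ENSMUSG00000032487) lies at chr1:150100031-150108227 (+), Ptges (ENSMUSG00000050737) lies at chr2:30889471-30929863 (-), Hpgds (ENSMUSG00000029919) lies at chr6:65117293-65144908 (-), Alox5 (ENSMUSG00000025701) lies at chr6:116410077-116461178 (-). On the same build Alox5ap (ENSMUSG00000060063) lies at chr5:149264767-149288153 (+), Lta4h (ENSMUSG00000015889) lies at chr10:93453411-93484875 (+), Ltc4s (ENSMUSG00000020377) lies at chr11:50236461-50238616 (-), Alox15 (ENSMUSG00000018924) lies at chr11:70344152-70352031 (-), Alox12e (ENSMUSG00000018907) lies at chr11:70315610-70322628 (-).

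Total counts lay between 9233952 and 19814119 per library. Within a group the libraries correlated at r = 0.976 to 0.988 on log2 CPM (counts scaled to an equal library total) across the tested genes, except for the CD9+ day 1 libraries, which correlated at 0.935. Adgre1, the gene of F4/80, read 120 to 216 CPM in both kinds of macrophages and 8.40 to 13.8 CPM in F4/80- cells, and Ly6g read 81.4 to 285 CPM in neutrophils and at most 10.1 CPM elsewhere. Markers of other leukocytes were present in the CD9+ and F4/80- gates. The summed CPM of 7 neutrophil markers went from 7141 and 2310 in CD9+ cells on day 1 to 7630 and 5311 on day 14, against 31711 to 54915 in neutrophils and 442 to 1066 in CX3CR1+ macrophages. It was 11800 to 15804 in F4/80- cells, above every CD9+ library, with S100a9 alone at 7488 to 10352 CPM. With time 3 of the 7 markers were called lower in F4/80- cells and 0 higher (3.25% of all genes called). Retnlg in F4/80- cells went from 122 and 98.0 CPM on day 1 to 10.5 and 12.3 on day 14. In CD9+ cells S100a8 and S100a9 made up most of the neutrophil sum as well, with S100a9 alone at 1557 to 5012 CPM. Of the 7 markers, 2 were called higher there with time and 1 lower (8.23% of all genes called). Mmp8 went from 86.7 and 73.3 CPM to 48.2 and 21.6, and Retnlg from 122 and 101 to 242 and 264. The sum of 8 eosinophil markers, among them Epx and Prg2, was 647 and 658 in CD9+ cells on day 1 and 7052 and 11428 on day 14, against 34.4 to 128 in the other 12 libraries. The sum of 8 basophil and mast cell markers was highest in F4/80- cells, at 1382 to 2237, and was 302 and 158 in CD9+ cells on day 1 and 598 and 510 on day 14. In neutrophils this sum of 1172 to 1404 was nearly all Hdc, which alone read 1140 to 1383 CPM. In a sorted bulk library, fewer cells of a type and less RNA per cell cannot be told apart.

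The promoters of 8 of the 10 genes were matched in RefSeq on GRCm38.p6 (the assembly of mm10), each as 250 bases before the annotated start and 50 from it on. No entry was matched for Alox5ap and Alox15. Those of Ptgs2 and Ptges, which fell with time in CD9+ macrophages, and of Hpgds and Alox12e, which rose there, are shown 5′ to 3′, so that both directions can be read beside each other. Capitals mark the letters of 8 motifs searched on both strands, whose share is given over 32851 mouse promoter windows of the same length. The C/EBP palindrome was searched as TTGCGCAA and is held by 0.183% of windows. The E-box was searched as CACGTG, with a share of 7.15%. The core of the cyclic AMP response element was searched as TGACGT, with a share of 7.51%. The GC box was searched as GGGCGG and is the commonest, in 35.7% of windows. For PU.1 the letters were GAGGAAGT, present in 3.20% of windows. The GATA motif was searched as AGATAA and found in 11.2% of windows. For STAT factors the spaced palindrome was TTCNNNGAA, in 8.30% of windows. The TATA box was searched as TATAAA, in 13.6% of windows. The Ptgs2 promoter lies at chr1:150099781-150100080 (+), the Ptges promoter at chr2:30903248-30903547 (-), the Hpgds promoter at chr6:65144681-65144980 (-) and the Alox12e promoter at chr11:70322481-70322780 (-).
Ptgs2: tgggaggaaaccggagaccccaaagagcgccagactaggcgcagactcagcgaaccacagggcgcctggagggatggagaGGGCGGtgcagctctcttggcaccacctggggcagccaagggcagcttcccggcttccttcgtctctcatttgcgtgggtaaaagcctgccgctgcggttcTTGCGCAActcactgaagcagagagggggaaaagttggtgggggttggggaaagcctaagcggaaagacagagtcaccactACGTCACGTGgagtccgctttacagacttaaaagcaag
Ptges: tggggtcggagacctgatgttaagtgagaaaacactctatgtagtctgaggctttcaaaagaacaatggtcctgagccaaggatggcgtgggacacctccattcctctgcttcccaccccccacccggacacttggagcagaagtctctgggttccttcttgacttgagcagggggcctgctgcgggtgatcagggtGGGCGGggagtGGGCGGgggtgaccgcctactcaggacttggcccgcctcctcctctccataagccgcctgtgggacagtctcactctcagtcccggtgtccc
Hpgds: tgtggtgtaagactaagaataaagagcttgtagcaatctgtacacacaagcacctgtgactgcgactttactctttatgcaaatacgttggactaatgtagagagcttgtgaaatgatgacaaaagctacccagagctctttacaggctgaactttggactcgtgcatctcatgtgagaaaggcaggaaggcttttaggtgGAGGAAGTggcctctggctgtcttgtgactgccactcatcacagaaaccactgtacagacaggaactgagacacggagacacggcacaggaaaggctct
Alox12e: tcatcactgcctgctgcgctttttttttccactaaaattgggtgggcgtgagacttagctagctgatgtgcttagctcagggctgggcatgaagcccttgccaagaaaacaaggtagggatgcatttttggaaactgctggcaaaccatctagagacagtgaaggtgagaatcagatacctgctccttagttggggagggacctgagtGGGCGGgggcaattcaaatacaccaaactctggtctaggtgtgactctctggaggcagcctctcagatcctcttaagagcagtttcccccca
The Ptgs2 window held 4 of these motifs, the C/EBP palindrome starting at -69, the GC box at -170, and the cyclic AMP core and the E-box, which overlap, at 12 and 16, counted from 0 at the start. Ptges held the GC box at 2 places, and Alox12e and Alox5 held it once. Hpgds and Ptgs1 each held the PU.1 letters. Lta4h and Ltc4s held none of the 8 motifs. The GATA, STAT and TATA letters were in none of the 8 promoters. A match gives letters in a window and is not a measured site.

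**Figure D1:**
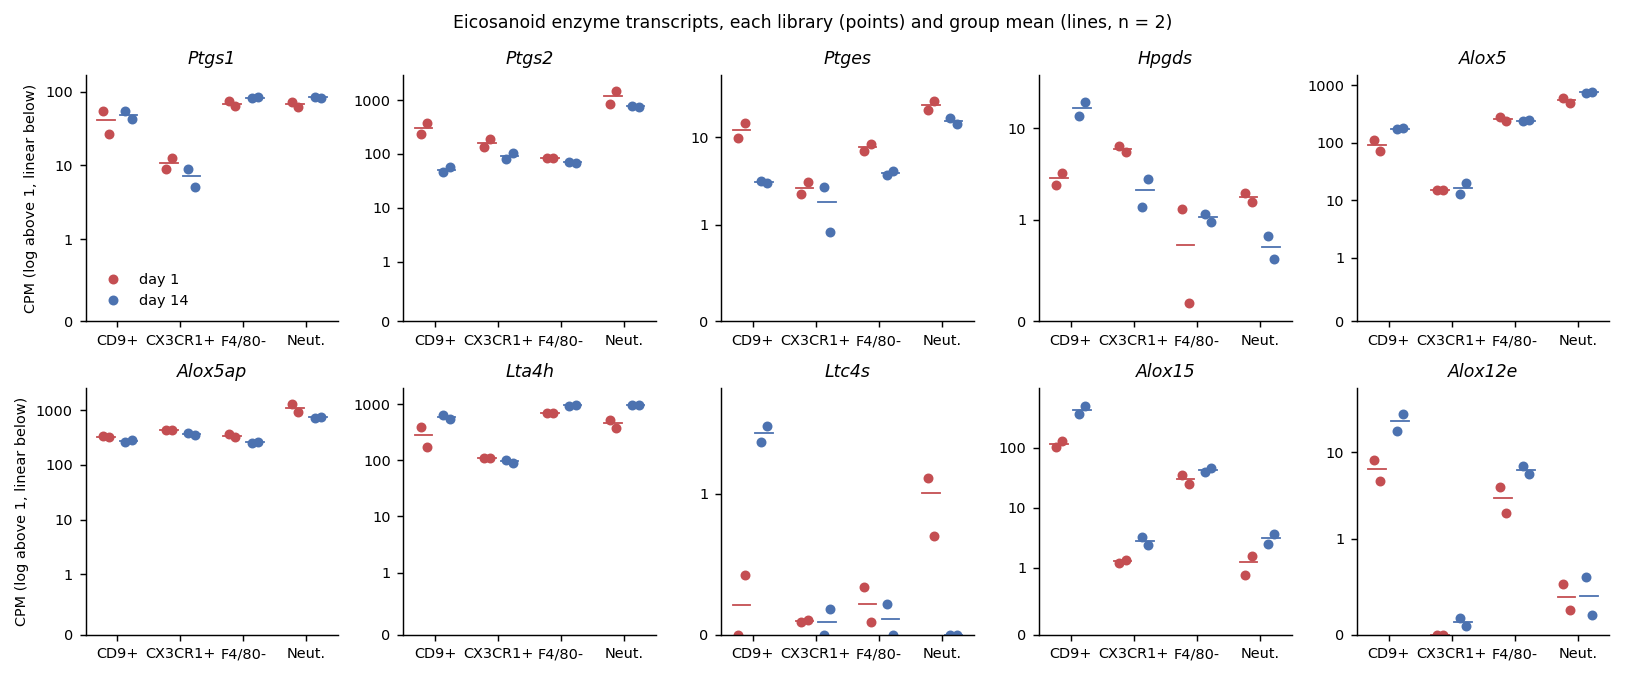
CPM of each member in the 16 libraries (points, day 1 red and day 14 blue), with the mean of the 2 libraries of a group as a line, by population, on an axis that is logarithmic above 1 CPM and linear below. In CD9+ macrophages Ptgs2 went from 237 and 370 on day 1 to 45.2 and 57.5 on day 14 and Alox15 from 102 and 128 to 367 and 496.

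Among the cyclooxygenases, Ptgs2 was the member that fell most in CD9+ macrophages. Its CPM there went from 237 and 370 on day 1 to 45.2 and 57.5 on day 14. In CX3CR1+ macrophages Ptgs2 read 134 and 190 CPM, then 80.8 and 104, and F4/80- cells went from 84.6 and 84.0 to 72.3 and 67.9. The highest Ptgs2 levels were those of neutrophils, with 847 and 1491 CPM on day 1 against 775 and 753 on day 14. CD9+ cells thus held the highest Ptgs2 outside neutrophils on day 1 and the lowest of all 8 groups on day 14, with no overlap with the next group in either case. The Ptgs2 differences from CX3CR1+ macrophages on either day, and from F4/80- cells on day 14, were not called. The fall in CD9+ cells was 5.91-fold (log2 fold change -2.56, standard error, SE, 0.27, edgeR adjusted p = 2.54e-05). Leaving out any library kept this log2 fold change between -2.85 and -2.21. The CX3CR1+ macrophages had a log2 fold change of -0.81 (SE 0.25, adjusted p = 0.050), short of the fold change of 2 that a call required, and in F4/80- cells -0.27 (adjusted p = 0.63). In neutrophils it was -0.61 (SE 0.25, adjusted p = 0.082). The day 1 library of CD9+ cells with the neutrophil marker sum of 7141 CPM had 237 CPM of Ptgs2, and that with a sum of 2310 had 370 CPM. The sum of 5 platelet and megakaryocyte markers was 147 and 226 CPM in CD9+ cells on day 1 and 93.4 and 97.0 on day 14. The part of either cell type in the result was not tested.

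Ptgs1 did not pass the test with time in any population. Its CPM in CD9+ macrophages went from 55.0 and 26.6 on day 1 to 54.2 and 42.8 on day 14, so that the days overlapped. In CX3CR1+ macrophages it was 8.97 and 12.6 CPM, then 9.03 and 5.18. F4/80- cells went from 73.5 and 63.2 CPM on day 1 to 81.0 and 83.3 on day 14, and neutrophils 71.8 and 62.4, then 85.1 and 81.9. CX3CR1+ macrophages were therefore the low group on both days. Gm43621 covers 3.81% of the Ptgs1 exon bases on the opposite strand and read at most 0.421 CPM. CD9+ cells exceeded CX3CR1+ cells by a log2 fold change of 1.93 on day 1 (SE 0.29, edgeR adjusted p = 3.34e-04) and 2.77 on day 14 (SE 0.32, adjusted p = 9.67e-06). The day 1 CD9+ library with 55.0 CPM of Ptgs1 had a neutrophil marker sum of 7141 CPM, and that with 26.6 had 2310. The part of neutrophils in the Ptgs1 level of CD9+ cells was not tested. The balance of both cyclooxygenases was compared per kilobase of exon, as the ratio of Ptgs2 to Ptgs1 RPKM within a library. This ratio was 3.66 and 11.8 in CD9+ macrophages on day 1 and 0.707 and 1.14 on day 14. It was 7.58 to 17.1 in the 4 CX3CR1+ libraries, 7.72 to 20.3 in the 4 neutrophil libraries and 0.692 to 1.13 in the 4 F4/80- libraries. On day 14 the CD9+ ratios were thus close to those of F4/80- cells, and on day 1 they were higher.

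The prostaglandin synthases of the 2 branches moved in opposite directions in CD9+ macrophages. Ptges, the inducible prostaglandin E synthase, went from 9.73 and 14.6 CPM there on day 1 to 3.16 and 3.03 on day 14. In CX3CR1+ macrophages it went from 2.23 and 3.07 CPM to 2.69 and 0.925, so that the days overlapped. The F4/80- libraries held 6.90 and 8.49 CPM, then 3.70 and 4.15, and neutrophils 20.9 and 26.3, then 16.9 and 14.3. Neutrophils were again the highest population on both days. The log2 fold change with time was -1.97 in CD9+ cells (SE 0.38, edgeR adjusted p = 0.0025), and -0.97 in F4/80- cells, -0.60 in neutrophils and -0.53 in CX3CR1+ macrophages, none of these 3 called (adjusted p = 0.13, 0.20 and 0.45). On day 1 Ptges was higher in CD9+ than in CX3CR1+ macrophages by a log2 fold change of 2.19 (SE 0.36, adjusted p = 7.20e-04). By day 14 it was 0.76 (SE 0.42, adjusted p = 0.21).

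Hpgds, the hematopoietic prostaglandin D synthase, rose in CD9+ macrophages. Its CPM went from 2.40 and 3.26 on day 1 to 13.7 and 19.2 on day 14, the highest level of any group. In CX3CR1+ macrophages it was 6.39 and 5.47 CPM on day 1, which was the highest of that day, and 1.39 and 2.78 on day 14. F4/80- cells held 1.31 and 0.183 CPM, then 1.16 and 0.976, and neutrophils 1.94 and 1.57, then 0.840 and 0.615. The macrophage populations thus changed places in the order of Hpgds levels between the days. The rise in CD9+ cells was 5.84-fold (log2 fold change 2.55, SE 0.57, edgeR adjusted p = 0.0066). In CX3CR1+ cells the log2 fold change was -1.51 (SE 0.57, adjusted p = 0.099). CD9+ cells exceeded CX3CR1+ cells on day 14 by a log2 fold change of 2.98 (SE 0.58, adjusted p = 0.0013), while on day 1 the difference was -1.08 (SE 0.55, adjusted p = 0.21). Without the second CD9+ library of day 14 the rise was 2.28 on the log2 scale with an adjusted p of 0.052. The sum of 5 resident macrophage markers, with Folr2 as its largest gene, was 18.9 and 25.4 CPM in CD9+ cells on day 14 and 0.875 to 10.5 CPM in the other 14 libraries, and its part in the rise was not tested, nor was that of the eosinophil or the basophil and mast cell markers.

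**Figure D2:**
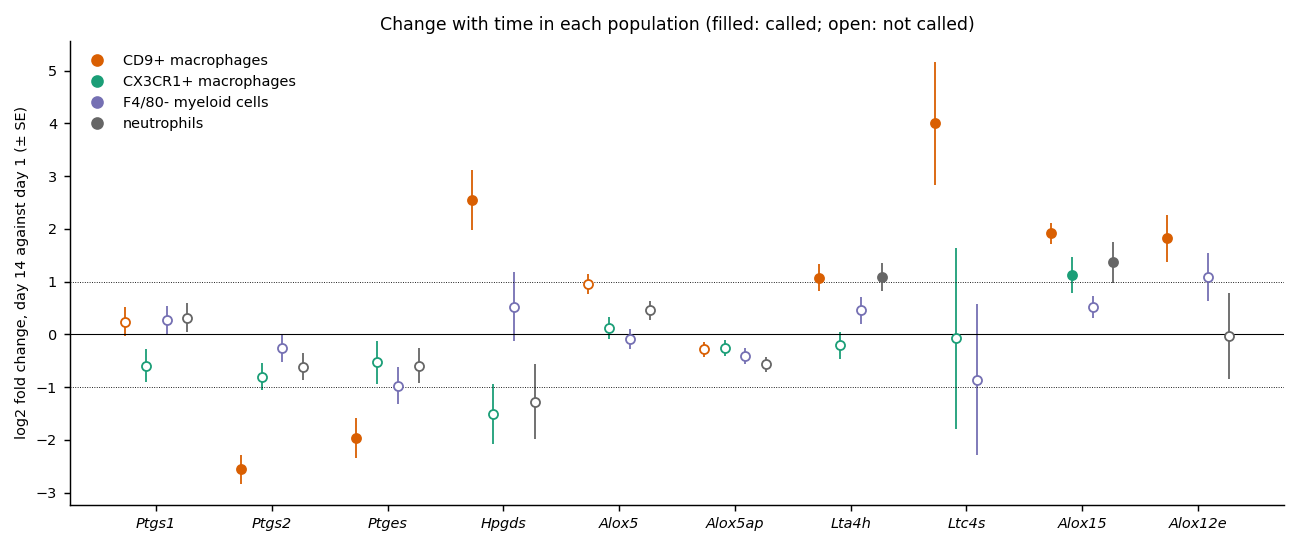
Log2 fold change of day 14 against day 1 (y axis, ± standard error) of each member (x axis) in CD9+ macrophages (orange), CX3CR1+ macrophages (green), F4/80- myeloid cells (purple) and neutrophils (grey), with filled points for called changes, open points for the rest and dotted lines at -1 and 1. Hpgds stands at 2.55 in CD9+ cells and at -1.51 in CX3CR1+ cells. Ltc4s in neutrophils and Alox12e in CX3CR1+ macrophages are left out, since one of their days held 0 counts.

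The 5-lipoxygenase Alox5 was highest in neutrophils and lowest in CX3CR1+ macrophages. It read 604 and 503 CPM in neutrophils on day 1 and 740 and 774 on day 14. The F4/80- libraries held 278 and 244 CPM, then 238 and 251, and CD9+ macrophages 111 and 71.5, then 173 and 181. In CX3CR1+ macrophages Alox5 went from 15.1 and 15.0 CPM on day 1 to 13.0 and 19.6 on day 14. The 4 populations did not overlap on either day. Neutrophils exceeded CX3CR1+ macrophages by 36.7-fold on day 1 and 46.5-fold on day 14 (log2 fold changes of CX3CR1+ cells against neutrophils -5.20 and -5.54, SE 0.23 and 0.23, edgeR adjusted p = 1.31e-10 and 4.57e-11). CD9+ cells exceeded CX3CR1+ cells by a log2 fold change of 2.60 on day 1 (SE 0.21, adjusted p = 8.30e-07) and 3.44 on day 14 (SE 0.22, adjusted p = 2.71e-08). With time Alox5 had a log2 fold change of 0.95 in CD9+ cells (SE 0.19, adjusted p = 0.0037), just under a fold change of 2. It became 1.31 without the first CD9+ library of day 1 and 0.67 without the second. The first of these libraries held the higher neutrophil marker sum, and its part in the Alox5 level was not tested. F4/80- cells held neutrophil marker sums of 11800 to 15804 CPM, made up mostly of S100a8 and S100a9. The part of neutrophils in the Alox5 level of F4/80- cells was not tested either.

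Alox5ap, which presents arachidonic acid to the 5-lipoxygenase, had the highest mean level per kilobase of exon of the 10 members in each of the 8 groups, at 183 to 781 mean RPKM. In the second CD9+ library of day 14 Alox15 was slightly higher, at 202 against 200 RPKM. It went from 340 and 323 CPM in CD9+ cells on day 1 to 260 and 284 on day 14, and CX3CR1+ cells held 445 and 446, then 385 and 359. F4/80- cells held 370 and 320 CPM, then 252 and 267, and neutrophils 1297 and 922, then 727 and 766. Neutrophils were above the other populations on both days, and CX3CR1+ macrophages, the lowest for Alox5, were second. The largest change with time was -0.57 on the log2 scale in neutrophils (SE 0.15, adjusted p = 0.0089), under a fold change of 2. Against neutrophils the log2 fold changes of the other populations were -1.74 to -1.32 on day 1 and -1.53 to -1.0 on day 14, all called, with the largest adjusted p at 2.34e-05. With scaling by library size alone, which moved the median of all genes by up to 0.61 on the log2 scale, Alox5ap stayed lower than in neutrophils, but the call was lost for CX3CR1+ cells on day 1 (-0.74) and for all 3 populations on day 14 (-0.96 to -0.49), each under a fold change of 2. The CX3CR1+ difference of day 14 stood at the threshold, and its call was lost as well with upper quartile factors (-0.79), with each of the 4 other filters on low counts (-0.97 to -0.78), without the second CX3CR1+ library of day 14 (-0.92) and without the second neutrophil library of day 14 (-0.97). Gm19719 covers 13.3% of the Alox5ap exon bases on the opposite strand and read at most 7.92 CPM.

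Lta4h, the leukotriene A4 hydrolase, had its highest levels in neutrophils and F4/80- cells on day 14. In CD9+ macrophages it went from 396 and 177 CPM on day 1 to 662 and 547 on day 14, and in CX3CR1+ macrophages 111 and 111, then 103 and 88.7. The F4/80- libraries held 707 and 702 CPM, then 941 and 988, and neutrophils 538 and 385, then 990 and 965. CX3CR1+ macrophages were the low group on both days, as they were for Ptgs1 and Alox5. In neutrophils Lta4h rose by 2.12-fold (log2 fold change 1.08, SE 0.26, edgeR adjusted p = 0.0058). In CD9+ cells it rose by 2.10-fold (log2 fold change 1.07, SE 0.26, adjusted p = 0.011). The CD9+ call was lost without the second library of day 1 (log2 fold change 0.61, adjusted p = 0.032) and without the first of day 14 (0.94, adjusted p = 0.093), while without the first of day 1 the change was 1.77. The neutrophil call was lost without the second library of day 1 (0.86, adjusted p = 0.069). On day 14 Lta4h was higher in CD9+ than in CX3CR1+ macrophages by a log2 fold change of 2.65 (SE 0.27, adjusted p = 3.70e-06). On day 1 this was 1.37 (SE 0.26, adjusted p = 0.0024) and 0.67 without the first CD9+ library. That first library had a neutrophil marker sum of 7141 CPM, and the second CD9+ library of day 1 had 2310. The part of neutrophils in the Lta4h level of CD9+ cells was not tested.

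Ltc4s, the leukotriene C4 synthase, was close to the limit of detection everywhere. It passed the filter of 3 CPM only through CD9+ macrophages on day 14, and every other group mean was at or under 1.02 CPM. Tests that set this group against others are therefore tests of a gene selected by its level there, and are no independent support. The largest values were 2.58 and 3.44 CPM in CD9+ macrophages on day 14, 61 counts in all, against 0 and 0.421 CPM, or 4 counts, on day 1. Neutrophils held 1.35 and 0.700 CPM on day 1, 26 counts, and no count on day 14. The other 8 libraries held 0 to 0.340 CPM. The log2 fold change with time in CD9+ cells was 4.0 (SE 1.17, edgeR adjusted p = 0.030), and the adjusted p was 0.078 when no gene was filtered out. Without the first CD9+ library of day 1 the log2 fold change was 2.81, and without the second only a library with no count is left for that day, so that the fitted fold rests on the prior count. The adjusted p was 0.078 without the first, 0.086 without the first of day 14 and 0.11 without the second. In neutrophils the level on day 14 was at least 6.32-fold lower than on day 1, counted against a floor of 3 counts over the group (adjusted p = 0.033), and the adjusted p was 0.10 without the first neutrophil library of day 1, 0.13 without the first of day 14 and 0.16 without the second. On day 14 CD9+ cells exceeded neutrophils by at least 18.1-fold, CX3CR1+ macrophages with 2 counts by a ratio of 33.5 (95% interval 8.87 to 283, counting error only) and F4/80- cells with 3 counts by a ratio of 26.1 (8.51 to 130). The call against CX3CR1+ cells was lost without their first library of day 14 (adjusted p = 0.10), and that against F4/80- cells without the second CD9+ library (0.13) or either F4/80- library (0.065 and 0.19). Gm26542 on the opposite strand shares 26.4% of the Ltc4s exon bases and read 0.574 and 0.505 CPM in CD9+ cells on day 14. Whether the counting used the strand of the reads is not stated, and the part of Gm26542 in these counts was not tested.

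**Figure D3:**
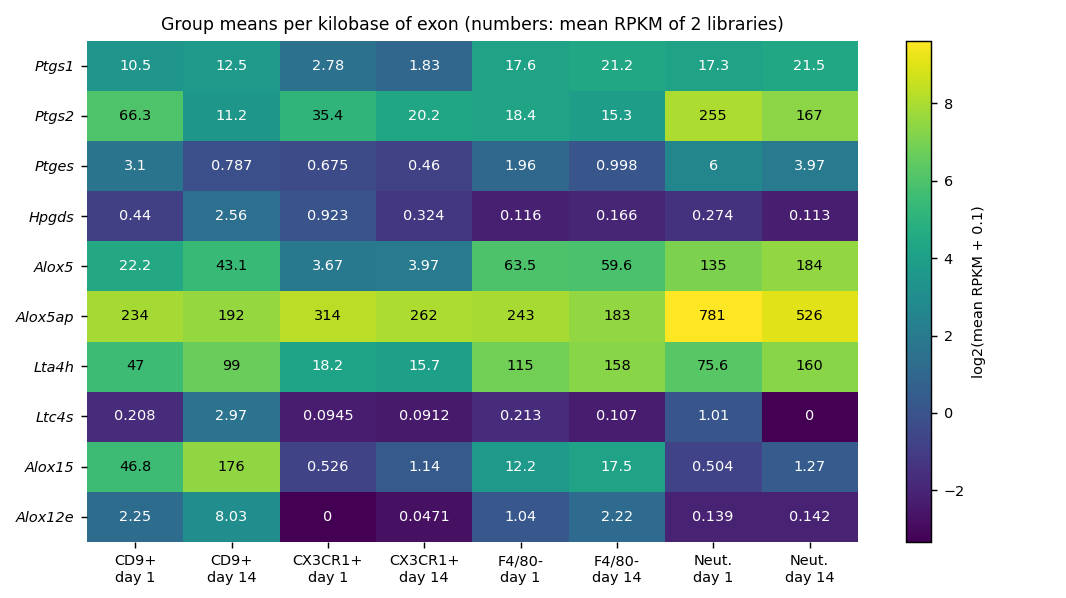
Mean RPKM (numbers in the cells, 2 libraries each) of each member in the 8 groups, with the color giving log2(RPKM + 0.1). Alox5ap has the highest value in all columns, from 183 in F4/80- cells on day 14 to 781 in neutrophils on day 1, and Alox15 reaches 176 in CD9+ cells on day 14 and stays at or under 1.27 in CX3CR1+ cells and neutrophils.

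Alox15 was highest in CD9+ macrophages on both days and rose there. It went from 102 and 128 CPM there on day 1 to 367 and 496 on day 14. F4/80- cells held 34.8 and 24.9 CPM, then 39.7 and 46.1. CX3CR1+ macrophages held 1.23 and 1.35 CPM, then 3.21 and 2.41, and neutrophils 0.897 and 1.57, then 2.52 and 3.69. The order on both days was CD9+ cells, F4/80- cells, and then neutrophils and CX3CR1+ cells, which overlapped. CD9+ cells exceeded CX3CR1+ cells by 88.6-fold on day 1 and 153-fold on day 14 (log2 fold changes 6.47 and 7.25, SE 0.28 and 0.28, edgeR adjusted p = 4.97e-09 and 3.44e-10). They exceeded F4/80- cells by 3.84-fold on day 1 and 10.1-fold on day 14 (log2 fold changes 1.94 and 3.33, SE 0.21 and 0.22, adjusted p = 7.89e-06 and 8.83e-08). With time Alox15 rose by 3.76-fold in CD9+ cells (log2 fold change 1.91, SE 0.21, adjusted p = 3.10e-05). It rose as well in CX3CR1+ macrophages (1.13, SE 0.34, adjusted p = 0.041) and in neutrophils (1.36, SE 0.38, adjusted p = 0.015), both from levels under 2 CPM. The first call was lost without any one of the 4 CX3CR1+ libraries (adjusted p = 0.081 to 0.29), and the second without the first neutrophil library of day 1 (0.14) or the second of day 14 (0.17). In F4/80- cells the log2 fold change was 0.52 (SE 0.21, adjusted p = 0.16).

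Alox12e, its neighbour on chromosome 11 at a distance of 21523 bases on the same strand, was likewise highest in CD9+ cells and next in F4/80- cells on both days, at lower levels. CD9+ macrophages went from 8.10 and 4.63 CPM on day 1 to 17.7 and 27.7 on day 14, and F4/80- cells 3.94 and 1.96, then 6.96 and 5.61. Neutrophils held at most 0.600 CPM. In CX3CR1+ macrophages no count was found on day 1 and 3 counts on day 14. CD9+ cells exceeded CX3CR1+ cells by at least 94.1-fold on day 1, with the floor of 3 counts over the group, and by a ratio of 168 on day 14 (95% interval 57.1 to 817, counting error only). Against F4/80- cells the log2 fold change of CD9+ cells was 1.12 on day 1 (adjusted p = 0.080) and 1.85 on day 14 (SE 0.45, adjusted p = 0.013), a call that was lost without the second CD9+ library of day 14 (adjusted p = 0.23) or either F4/80- library of day 14 (0.089 and 0.16). The rise with time in CD9+ cells was 3.53-fold (log2 fold change 1.82, SE 0.45, edgeR adjusted p = 0.013), and the adjusted p was 0.056 without the second CD9+ library of day 1 and 0.13 without the second of day 14. Per kilobase of exon Alox15 exceeded Alox12e by 14.5 and 31.8 times in the CD9+ libraries of day 1, by 23.9 and 20.6 times in those of day 14, and by 6.57 to 14.6 times in F4/80- cells. No 50-base stretch of either transcript was found in a transcript of another gene.

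Markers of other cells stood beside the lipoxygenase levels. The eosinophil marker sum went in CD9+ cells from 647 and 658 CPM to 7052 and 11428, and the day 14 library with the higher sum also had the higher Alox15, 496 against 367 CPM, the higher Alox12e and the higher Hpgds. The same library had the higher macrophage marker sum, 1578 against 1021 CPM, and resident macrophage marker sum, 25.4 against 18.9 CPM. On day 1 the 2 eosinophil sums were close, and their order came from Prg2, at 280 and 388 CPM. The other eosinophil markers were all higher in the first library, among them Epx (151 and 139 CPM) and Il5ra (13.7 and 5.68 CPM). Alox15 and Hpgds thus ran with Prg2 and against the other eosinophil markers. Alox12e, at 8.10 and 4.63 CPM, ran with those other markers. F4/80- cells had eosinophil sums of 37.2 to 128 CPM with 24.9 to 46.1 CPM of Alox15, whereas CX3CR1+ macrophages had sums of 34.4 to 128 CPM with 1.23 to 3.21 CPM of Alox15. None of the 8 eosinophil markers was at 0 in a CD9+ library. The basophil and mast cell sum was 4.86 to 9.90 CPM in CX3CR1+ cells, where Alox15 was near the lowest, and highest in F4/80- cells. The part of these cells in the Alox15 and Alox12e levels was not tested.

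**Figure D4:**
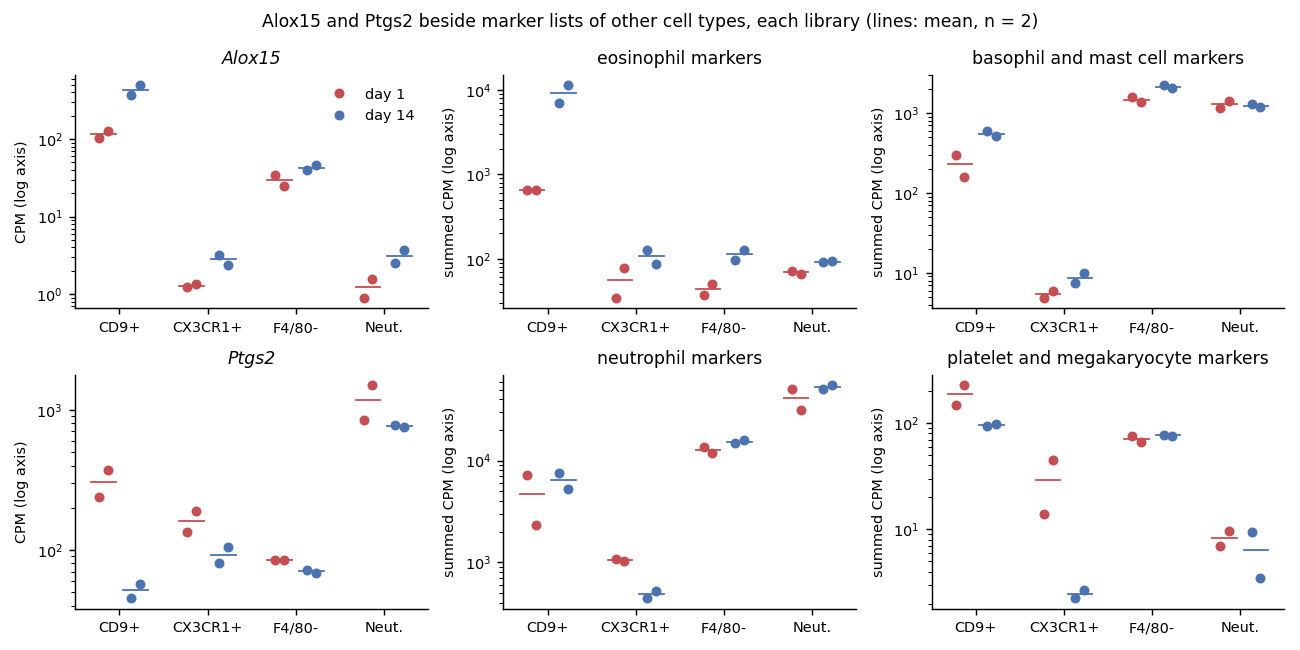
Alox15 and Ptgs2 (CPM) beside the summed CPM of markers of eosinophils, basophils and mast cells, neutrophils, and platelets and megakaryocytes, in each library by population (day 1 red, day 14 blue, lines the mean of 2 libraries), on logarithmic axes. The eosinophil sum reaches 7052 and 11428 in CD9+ cells on day 14, and the neutrophil sum of CD9+ cells is 2310 to 7630 on both days.

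Taking the 10 members by comparison, the change from day 1 to day 14 was called at a Benjamini-Hochberg adjusted p under 0.05 in edgeR's quasi-likelihood test with a fold change of at least 2. In CD9+ macrophages 7 members were called, where 8.23% of all tested genes were. Hpgds, Lta4h, Ltc4s, Alox15 and Alox12e rose, and Ptgs2 and Ptges fell. Ltc4s had passed the expression filter only through CD9+ cells on day 14, so its rise there is not independent of the filter. In CX3CR1+ macrophages Alox15 was called alone, against 5.86% of all genes. In neutrophils Lta4h and Alox15 rose and Ltc4s fell, against 14.1% of all genes. In F4/80- cells no member was called by edgeR, where 3.25% of all genes were, nor was any by DESeq2, and 4 members had an unadjusted p under 0.05. Alox15 was called in 3 populations, always as risen, and Ltc4s rose in CD9+ cells and fell in neutrophils.

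Between the macrophage populations, CD9+ cells had the higher level of each member that was called. These were 6 members on day 1 (Ptgs1, Ptges, Alox5, Lta4h, Alox15 and Alox12e), against 8.23% of all genes in either direction, and 7 on day 14 (Hpgds and Ltc4s in place of Ptges), against 14.2% of all genes. Against F4/80- cells, CD9+ cells were higher in 3 members and lower in 2 on day 1 (15.4% of all genes called) and higher in 4 and lower in none on day 14 (7.7%). The 2 lower members were Alox5 and Lta4h, and the higher ones were Ptgs2, Hpgds and Alox15 on day 1 and Hpgds, Ltc4s, Alox15 and Alox12e on day 14. As Ltc4s passed the filter only through CD9+ cells on day 14, its calls as higher in them that day are not independent of the filter. The day 1 call of Hpgds was lost without the second CD9+ library (adjusted p = 0.090) or the second F4/80- library (0.19), and that of Lta4h without the second CD9+ library (log2 fold change -0.83). Against neutrophils, CD9+ cells were higher in 2 and lower in 3 on day 1 and higher in 4 and lower in 4 on day 14, with 49.5% of all genes called on each day. Shares of called members near these are no result about the members. CX3CR1+ macrophages were lower than F4/80- cells in 6 members on both days and higher in 1, Hpgds, on day 1 (21.1% and 21.5% of all genes called). They were lower than neutrophils in 8 members and higher in Hpgds on day 1 (51%) and lower in 6 on day 14 (48%). The Ptges difference from F4/80- cells on day 14 was lost without the second CX3CR1+ library (adjusted p = 0.37) or either F4/80- library (0.096 and 0.15), and the Hpgds difference from neutrophils without their second library of day 1 (0.074). The Ltc4s difference from neutrophils on day 1 was lost with scaling by library size (adjusted p = 0.051), no filter (0.061) and filterByExpr (0.050), and without either CX3CR1+ library (0.11 and 0.081) or the first neutrophil library (0.12). F4/80- cells were higher than neutrophils in Alox15 and Alox12e on both days and lower in Ptgs2, Ptges, Alox5 and Alox5ap on both days (49% and 48.7%). The Alox5 difference of day 1, -1.08 on the log2 scale, fell under a fold change of 2 with scaling by library size (-0.47), upper quartile factors (-0.78), the CPM minimum in every group (-0.78), only the groups compared (-0.95), without the second F4/80- library (-0.93) and without the first neutrophil library (-0.95). These comparisons share libraries, so their counts are given side by side.

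Whether the change with time differed between the 4 populations was tested with the population by day interaction in the same model. It was called for 4 members, against 14.7% of all genes, namely Ptgs2 (adjusted p = 0.0020), Hpgds (0.0092), Alox15 (0.022) and Ltc4s (0.032). For Ptgs2 the change in CD9+ cells lay below that of CX3CR1+ macrophages by a log2 difference of -1.75 (SE 0.36, adjusted p = 0.016), below that of F4/80- cells by -2.30 (SE 0.37, adjusted p = 0.0072) and below that of neutrophils by -1.95 (SE 0.36, adjusted p = 0.0029). For Hpgds the change in CD9+ cells exceeded that of CX3CR1+ macrophages by 4.06 (SE 0.80, adjusted p = 0.012) and that of neutrophils by 3.82 (SE 0.89, adjusted p = 0.013), and the difference from F4/80- cells was 2.02 (SE 0.86, adjusted p = 0.26). The Alox15 change in CD9+ cells exceeded that of F4/80- cells by 1.39 (SE 0.29, adjusted p = 0.021), and differed from that of CX3CR1+ macrophages by 0.79 (SE 0.40, adjusted p = 0.35) and from that of neutrophils by 0.55 (SE 0.45, adjusted p = 0.49). Ltc4s was called in CD9+ cells against neutrophils (adjusted p = 0.010). As Ltc4s passed the filter only through CD9+ cells on day 14, its interaction is not independent of the filter. Over all genes, 2.28% were called in the difference between CD9+ and CX3CR1+ macrophages, 1.69% in that from F4/80- cells and 8.03% in that from neutrophils. The interaction for Alox5 and Lta4h stood at an adjusted p of 0.054 and 0.055, and without the first CD9+ library of day 1 these and Ptgs1 were called as well, which gave 7 members. Without the second CD9+ library of day 14 Alox15 and Ltc4s were lost, which gave 2 members. Alox15 was lost as well without the first F4/80- library of day 1 (0.091) or either of day 14 (0.092 and 0.050), and Ltc4s without the first CD9+ library of day 14 (0.065), the first neutrophil library of day 1 (0.066) or either of day 14 (0.085 and 0.098), whereas Ptgs2 and Hpgds were called without any one library. Given the number of mice that the study used, the populations of a day must share mice, but which libraries do is not stated. With the replicate number within each day as a block, Alox5 (0.016) and Lta4h (0.019) were called as well and Ltc4s (0.059) was not.

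Around the 10 enzymes, 60 gene symbols of the same pathways were followed, of which 48 were in the table and 37 were tested. In CD9+ macrophages 0 of these 37 were called as risen and 5 as fallen (8.23% of all tested genes called) with a median log2 fold change of -0.02. The counts were 3 and 3 in CX3CR1+ macrophages (5.86%, median -0.27), 1 and 4 in F4/80- cells (3.25%, median -0.05) and 2 and 7 in neutrophils (14.1%, median -0.44), while the medians over all tested genes lay between -0.02 and 0.03. In the list of phospholipase and phospholipid remodelling genes 1 of 9 tested genes was called in each population, Pla2g7, which encodes the platelet-activating factor acetylhydrolase. Its mean CPM fell from 247 to 109 in CD9+ cells (log2 fold change -1.18, SE 0.14, adjusted p = 7.63e-05) and from 14.4 to 2.86 in F4/80- cells (-2.34, SE 0.19, adjusted p = 4.70e-06). Pla2g4a, the cytosolic phospholipase A2 that releases arachidonic acid, read a mean of 27.1 to 58.7 CPM over the 8 groups and was called with time in no population. Its log2 fold change was -0.69 in CX3CR1+ macrophages (SE 0.17, edgeR adjusted p = 0.013) and 0.59 in neutrophils (SE 0.17, adjusted p = 0.016), each under a fold change of 2. Among the 6 other prostanoid synthases tested, Ptges3 fell in neutrophils (-1.16, SE 0.23, adjusted p = 0.0018) and no other call was made. Tbxas1, the thromboxane synthase, read mean CPM of 68.5 and 65.1 in CD9+ cells on days 1 and 14 and 13.7 to 40.7 elsewhere.

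Of the 5 tested genes of prostanoid breakdown and transport, Hpgd, the dehydrogenase that inactivates prostaglandin E2, rose in 2 populations. Its mean CPM went from 33.4 to 88.3 in CX3CR1+ macrophages (log2 fold change 1.40, SE 0.34, edgeR adjusted p = 0.014) and from 2.46 to 8.87 in F4/80- cells (1.85, SE 0.41, adjusted p = 0.014), and in CD9+ cells from 18.1 to 31.9 (0.80, SE 0.36, adjusted p = 0.14). Of 4 tested prostanoid receptors, Ptger2, a receptor of prostaglandin E2, fell in CD9+ cells from a mean of 16.3 to 6.50 CPM (-1.33, SE 0.36, adjusted p = 0.019) and in neutrophils from 62.8 to 25.8 (-1.28, SE 0.32, adjusted p = 0.0085). Ptger4, another receptor of the same prostaglandin, rose in neutrophils from 32.0 to 87.2 CPM (1.45, SE 0.17, adjusted p = 1.80e-05). The prostacyclin receptor Ptgir rose in CX3CR1+ macrophages from 10.4 to 22.7 CPM (1.12, SE 0.21, adjusted p = 0.0024).

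Of 7 tested genes of leukotriene handling, Ggt5 and Ggt1, which trim leukotriene C4 to D4, fell in CD9+ cells by log2 fold changes of -2.36 and -2.39 (SE 0.43 and 0.60, edgeR adjusted p = 0.0020 and 0.013) from means of 4.98 and 2.25 CPM on day 1. Both were highest in neutrophils, with Ggt5 at a mean of 75.3 CPM and Ggt1 at 45.2 CPM on day 1, and 62.4 and 14.7 later. Abcc1, an exporter of leukotriene C4, fell in neutrophils from 233 to 19.9 CPM (-3.55, SE 0.24, adjusted p = 7.68e-08), and Mgst2, a second leukotriene C4 synthase, rose there from 17.6 to 47.9 (1.44, SE 0.28, adjusted p = 0.0015). Among 5 tested receptors of leukotrienes and lipoxygenase products, Cmklr1, a receptor of resolvin E1, fell in CD9+ cells from 89.5 to 36.7 CPM (-1.29, SE 0.34, adjusted p = 0.019) and in CX3CR1+ cells from 90.5 to 13.2 (-2.77, SE 0.37, adjusted p = 1.43e-04), and in neutrophils from 5.29 to 0.445 (-3.56, SE 0.67, adjusted p = 0.0010). Fpr2 fell in F4/80- cells to 19.7 (-1.34, SE 0.19, adjusted p = 4.88e-04), and the cysteinyl leukotriene receptor Cysltr1 fell in neutrophils from 3.84 to 0.343 (-3.50, SE 0.56, adjusted p = 2.84e-04). The sum of 8 macrophage markers in neutrophil libraries was 588 and 590 CPM on day 1 and 182 and 187 on day 14. Of these markers 6 were called lower with time, against 14.1% of all genes called in either direction. Their part in the falls of Cmklr1, Cysltr1 and Abcc1 in neutrophils was not tested. The leukotriene B4 receptor Ltb4r1 read 83.8 and 120 mean CPM in neutrophils and 18.1 to 54.9 elsewhere, was called lower than in neutrophils in the other 3 populations on both days and had no call with time. Alox8, the tested one of 4 other lipoxygenases, was called in CX3CR1+ macrophages, where it went from no count to a mean of 0.413 CPM (adjusted p = 0.036), and its highest means were 4.88 and 6.33 CPM in F4/80- cells.

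The genes whose group means ran most like those of a member were listed by Pearson's r over the 8 group means of log2 CPM, a description in which all points share the same libraries. For Alox5 these were Hdc (r = 0.996), Tst (0.996) and Adtrp (0.996), and for Ptgs1 Ets1 (0.997), Tshr (0.996) and Gca (0.992). Ptgs2 ran most like Eps8l1 (0.986), Ralb (0.985) and Trim41 (0.984), and Ptges most like Nqo1 (0.979), Ldha (0.960) and Pgam1 (0.960). Hpgds ran most like Slco2b1 (0.970), Gbgt1 (0.95) and Pou6f1 (0.934). Alox15 ran most like Emid1 (0.991), Pdzd2 (0.985) and Trp53i11 (0.985), and Alox12e most like Mylk3 (0.995), Emid1 (0.973) and Npr2 (0.969), so that Emid1 was shared by both lipoxygenases. Lta4h ran most like Hlf (0.994), Tmem216 (0.991) and Stk16 (0.991), Alox5ap like Gm31814 (0.995), Ccdc174 (0.992) and Selenok (0.990), and Ltc4s, at few counts, like Mrps18c (0.960), Ch25h (0.899) and Mapt (0.898). Among the members themselves r was highest between Alox15 and Alox12e (0.966), Ptgs1 and Lta4h (0.961), Ptgs1 and Alox5 (0.953) and Alox5 and Lta4h (0.918), and Ptgs2 reached 0.912 with Alox5ap.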

How the data were processed

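Bulk RNA-seq was measured in 16 libraries of flow-sorted cells, made by the authors with a stranded low-input SMART-Seq kit and sequenced paired-end. The authors deposited whole-number read counts per gene for 20200 genes, with reads trimmed by Cutadapt, aligned with STAR to mm10 and counted over Gencode exons. Whether strand was used in counting, and which filter left these genes (smallest total 17 counts), is not given in the sources used here. Groups and replicate numbers were taken from the labels. Depth was 9233952 to 19814119 counts, and intervals and floors cover counting error only.

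Genes with a group mean of at least 3 CPM in at least 1 group (11998) were tested in edgeR 4.0.16 (R 4.3.3, limma 3.58.1) by the quasi-likelihood test with TMM factors and 8 group means, and called where the Benjamini-Hochberg adjusted p was under 0.05 with a change of 1 or more on the log2 scale in either direction. The population by day interaction was called on the adjusted p alone. Standard errors (SE) are the log2 fold change over the root of F. Pairwise differences in time change were read for members that the interaction called. The scripts were tested on simulated data. RPKM used exon lengths of a Gencode release other than that of the counts. P-values measure the spread between pools, which may be technical in part. The populations of a day share mice, by the number of mice used, but no source ties libraries to pools, so the fit has no block and the blocked values are given where they change a call.

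The members and gene lists were chosen with earlier results of these data known. All members are named, and from each pathway list at most 4 genes, most of them called with time, as well as the 3 tested genes most alike each member. The named pathway genes do not always include those of highest mean CPM, and Lpcat2, Mboat7, Abcc4 and Cyp4f18 are left out. Alternatives were scaling by library size or upper quartile, no filter, filterByExpr, the CPM minimum in every group, no fold change threshold, glmTreat against a fold change of 1.5, only the groups compared, a replicate block, DESeq2 1.42.0 and each library left out. A CPM filter with TMM factors was added after seeing the data.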

Additional observations from a re-analysis of the deposited data

Results flagged for a closer look

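The change from day 1 to day 14 differed between the 4 populations for 4 of the 10 members in the test of the population by day interaction (edgeR, adjusted over all tested genes), where 14.7% of all tested genes were called. The adjusted p was 0.0020 for Ptgs2, which fell in CD9+ macrophages. It was 0.0092 for Hpgds and 0.022 for Alox15, which rose there. It was 0.032 for Ltc4s, which rose in CD9+ macrophages and fell in neutrophils at few counts. Ltc4s passed the expression filter only through CD9+ macrophages on day 14, so this call is not independent of the filter. The calls of Alox15 and Ltc4s were lost when certain single libraries were left out, and that of Ltc4s also with a replicate block (0.059).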

How the results depend on the processing

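No member's called direction reversed under any alternative run. Requiring 3 CPM in every group removed members that are low in some population and lowered the counts of called members to 2 for time in CD9+ macrophages, 0 in CX3CR1+ macrophages and 1 in neutrophils. With it the day 1 counts were 3 for CD9+ against CX3CR1+, 3 for CD9+ against F4/80-, 3 for CD9+ against neutrophils, 3 for CX3CR1+ against F4/80-, 5 for CX3CR1+ against neutrophils and 2 for F4/80- against neutrophils. Its day 14 counts were 3 for CD9+ against CX3CR1+, 0 for CD9+ against F4/80-, 3 for CD9+ against neutrophils, 3 for CX3CR1+ against F4/80- and 3 for F4/80- against neutrophils, and the interaction called 2. With no fold change threshold 2 members were called for time in CX3CR1+ macrophages and 8 for CD9+ cells against neutrophils on day 1. With glmTreat 4 were called for time in CD9+ cells, 0 in CX3CR1+ cells and 0 in neutrophils. With only the groups compared in the fit, 3 were called for time in CD9+ cells, 1 in F4/80- cells and 3 for CD9+ against F4/80- cells on day 1. The cause of these moves was not tested except for the filter, which leaves fewer genes.

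Leaving out 1 library at a time, with a lone library assumed to vary like the other groups, gave 4 to 7 called members for time in CD9+ cells, 0 to 1 in CX3CR1+ cells, 1 to 2 in neutrophils, 2 to 4 for CD9+ against F4/80- cells on day 14 and 2 to 7 for the interaction. Same-numbered libraries of different populations correlated at 0.0132 to 0.144 in their deviations from the group means, with 3 of the 12 values above 0.1, and whether equal numbers mark the same pool of mice is not stated. With a replicate block the interaction called 5 members, with Alox5 (adjusted p = 0.016) and Lta4h (0.019) gained and Ltc4s lost (0.059), and the neutrophil change of Ltc4s stood at 0.053. DESeq2 called 6 in the interaction, with Alox5 (0.0073) and Lta4h (0.0042) added. The CD9+ fall of Ptges was lost with only the groups compared (adjusted p = 0.055), and the CD9+ rise of Ltc4s was lost with no filter (0.078) and with filterByExpr (0.065). Over all genes, counts of calls came to 0.325 to 0.716 times the main count with the CPM minimum in every group, 1.37 to 2.15 times with no fold change threshold, 0.403 to 1.04 with glmTreat, 0.334 to 1.67 with only the groups compared, up to 1.61 with DESeq2 and 0.446 to 2.10 with a library left out. Scaling by library size moved the median log2 fold change by up to 0.608 and the share of higher calls by over 10 percentage points in 9 of 17 comparisons. Changes of Ltc4s, and of Alox12e outside CD9+ and F4/80- cells, rest on few counts.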
